A study of Mus musculus with 2 samples.

Results

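The genes of the cytosolic ribosomal proteins were examined for chromatin signal of the phosphatase PHLPP1 in mouse macrophages. Members were chosen by symbol alone: protein-coding RefSeq genes on chromosomes 1 to 19 named Rpl or Rps with a number and at most 1 suffix letter, plus Rplp0, Rplp1, Rplp2 and Rpsa. The rule gave 77 genes of 20665 protein-coding genes on these chromosomes, of which 47 encode proteins of the large (60S) subunit and 30 of the small (40S) subunit. The 4 genes of the same naming on chromosome X were left out by the rule.

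The signal came from CUT&Tag, in which an antibody, here to PHLPP1, brings a transposase to chromatin and the DNA beside it is tagged and sequenced. Macrophages were grown from bone marrow of mice, described in the series as wild-type, with M-CSF at 20 ng/ml, and both groups share this background. The first library came from untreated cells and the other from cells given IL-4, the cytokine of alternative macrophage activation, at 20 ng/ml for 4 h. The labels name no control antibody library, and PHLPP1-deficient cells, which the treatment protocol mentions, were not analysed here. With 1 library per group there is no replicate check, no p-value between groups was computed, and all differences between the lists are side-by-side values of these 2 libraries.

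Ribosomal proteins and ribosomal RNA together form the ribosome, the particle that makes all cellular protein. Their genes are short, strongly expressed in growing cells, and start from promoters with little or no TATA box. The transcripts begin with a run of pyrimidines, through which the mTOR pathway controls their translation. PHLPP1 dephosphorylates AKT, a kinase that acts upstream of mTOR.

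Some promoters of ribosomal protein genes lay inside IL-4 peaks, and a few are printed to show the DNA under them. RefSeq's promoter table for GRCm38.p6, the same build as mm10, held 57 of the 77 members. A single IL-4 peak covered the whole stretch from 120 bases before to 20 bases from the start in 9 of these 57 (15.8%, 8.54 to 27.4), against 10.4% of all 16457 promoters in the table, which lies inside the members' interval. The 4 of them with the strongest peaks come first, on the plus strand, at chr13:90923002-90923141 for Rps23, chr9:44407594-44407733 for Rps25, chr15:5116493-5116632 for Rpl37 and chr7:109519075-109519214 for Rpl27a. Rpl37a, at chr1:72711140-72711279, and Rps9, at chr7:3703921-3704060, had no gene-end peak in either list and the fewest peaks within 50 kb among such members in the promoter table. All 6 are written 5′ to 3′ along the gene. Capitals mark a match on either strand to 3 sets of letters: CCGGAAG, the core bound by ETS factors, GGGCGG, the GC box, and ATTGG, the CCAAT box read on the other strand.

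Rps23: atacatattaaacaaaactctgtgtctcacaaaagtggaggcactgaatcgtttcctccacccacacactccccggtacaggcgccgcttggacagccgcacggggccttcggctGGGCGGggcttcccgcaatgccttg
Rps25: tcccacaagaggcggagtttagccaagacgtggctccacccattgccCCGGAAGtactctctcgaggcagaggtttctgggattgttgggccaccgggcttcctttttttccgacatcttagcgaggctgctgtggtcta
Rpl37: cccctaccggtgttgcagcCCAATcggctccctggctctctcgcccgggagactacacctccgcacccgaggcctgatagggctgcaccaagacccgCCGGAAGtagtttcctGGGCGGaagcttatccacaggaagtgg
Rpl27a: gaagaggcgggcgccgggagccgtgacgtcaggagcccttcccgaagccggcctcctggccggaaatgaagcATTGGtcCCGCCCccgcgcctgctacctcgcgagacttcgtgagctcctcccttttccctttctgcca
Rpl37a: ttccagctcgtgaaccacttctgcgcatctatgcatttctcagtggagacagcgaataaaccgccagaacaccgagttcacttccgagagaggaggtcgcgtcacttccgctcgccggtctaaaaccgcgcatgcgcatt
Rps9: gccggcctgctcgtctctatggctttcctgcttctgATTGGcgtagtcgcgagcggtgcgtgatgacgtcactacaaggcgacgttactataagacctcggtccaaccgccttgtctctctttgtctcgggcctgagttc

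In these stretches the ETS core began 73 bases before the start of Rps25 and 23 bases before that of Rpl37. A GC box began 5 bases before the start of Rps23, 7 before that of Rpl37 and 41 before that of Rpl27a. A CCAAT box began 101 bases before the start of Rpl37, 48 before that of Rpl27a and 84 before the listed start of Rps9. That listed start lies 87 bp inside Rps9 from its first annotated base. Rpl37a had none of the 3.

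The deposited lists held 149349 untreated peaks and 240661 IL-4 peaks after entries of the same interval were reduced to their strongest summit. Most peaks were weak, with a median of 5 fragments at the summit without IL-4 and 4 with it. The lowest listed number was 4 without IL-4 and 3 with it, and the lowest local background was 1.46 times as high in the untreated library. The labels give no total of reads, so the depth is known only through these values. Fold enrichment, p and q of a peak are those of the authors' caller and compare a summit with the background of its own library. Fragment numbers carry exact Poisson 95% intervals that cover counting error only, and shares of genes carry Wilson 95% intervals. Gene-end peaks at q of at most 0.05 in the IL-4 list were present at 2 of 10 macrophage marker genes, against 19.2% of all coding genes, and at 0 of 4 B cell, 0 of 4 T and NK cell, 0 of 4 neutrophil and 0 of 3 erythroid marker genes. With all deposited peaks the IL-4 counts were 6 of 10, 1 of 4, 2 of 4, 2 of 4 and 2 of 3 in the same order. The share of all coding genes was 51.5%, so the peaks do not set macrophage genes apart. Such peaks do not measure expression.

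A gene-end peak, meaning a summit no more than 1 kb from the first or last annotated base of a gene, stood at more ribosomal protein genes in the IL-4 list than in the untreated list. With IL-4, 50 of 77 members had one (64.9%, 53.8 to 74.7), against 51.5% of all protein-coding genes. Without it, 16 of 77 had one (20.8%, 13.2 to 31.1), against 24.0% of all genes. The untreated share was thus close to that of all genes, whereas the interval of the IL-4 share began above the share of all genes. The gap depended on the distance allowed. Within 500 bp the IL-4 shares were 57.1% of members and 38.2% of all genes, and within 3 kb they were nearly equal, at 77.9% and 76.6%. Untreated shares within 3 kb were 33.8% of members and 48.6% of all genes. Members are shorter, with a median length of 3183 bp against 17491 bp for all genes. At 3 kb the windows at both ends of a short gene overlap, so less sequence is searched. The part of length in these shares was not tested.

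Most of these genes had their peak in the IL-4 list only. This class held 38 members (49.4%, 38.5 to 60.3), against 36.9% of all genes. Both lists had a gene-end peak at 12 members (15.6%, 9.15 to 25.3), against 14.6% of all genes. The untreated list alone had one at 4 members (5.19%, 2.04 to 12.6), against 9.39%. Neither list had one at 23 members (29.9%, 20.8 to 40.8), and the 39.2% of all genes lies inside this interval. The classes describe what was listed, and the IL-4 list is 1.61 times as long. With that list shortened by −log10 p to the length of the untreated one, 39 members (50.6%) had an IL-4 peak, against 40.6% of all genes, and 29 (37.7%) had one in that list only, against 28.8%. Intervals as wide as those of the full list would hold both shares of all genes, so an excess was not clear at equal length.

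Of the 3 peak thresholds used, q of at most 0.05 gave the widest gap to all genes. At this q 28 members had an IL-4 gene-end peak (36.4%, 26.5 to 47.5), against 19.2% of all genes. Untreated peaks reached it at 5 members (6.49%, 2.81 to 14.3), against 4.25%. A total of 24 members were in the IL-4 list only (31.2%, 21.9 to 42.2), against 17.7% of all genes. Of these, 4 had a weaker untreated gene-end peak and 20 had no untreated one at all. Among the strongest peaks, at a −log10 q of at least 5, only 2 members remained (2.60%, 0.715 to 8.98), a share close to the 2.77% of all genes.

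**Figure D1:**
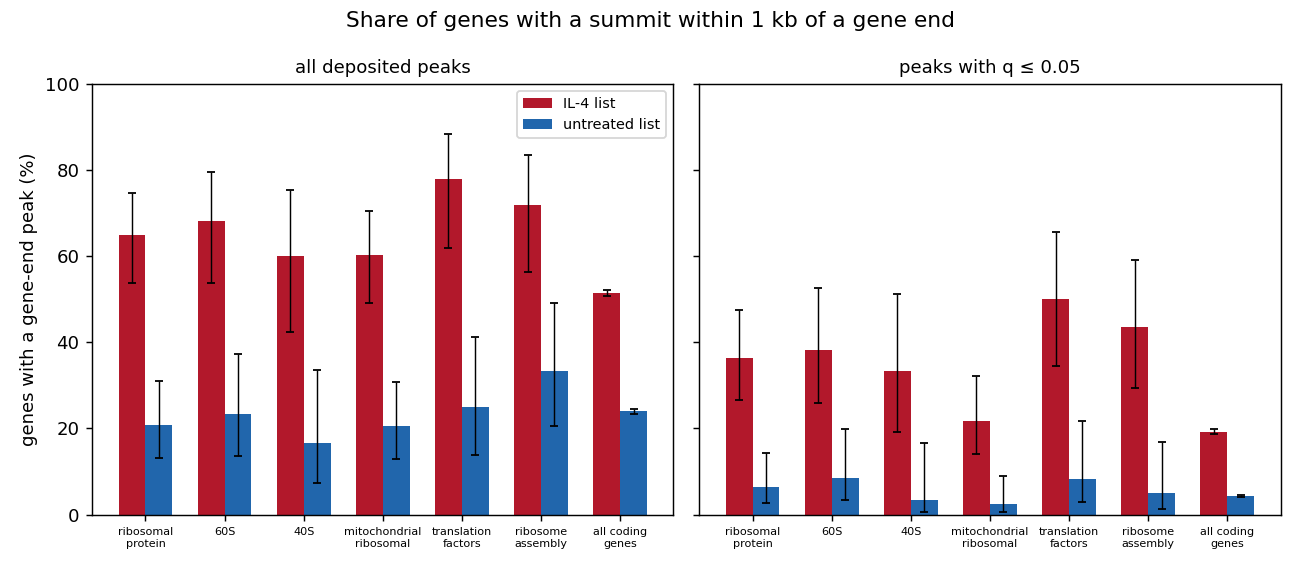
Percentage of genes (y axis) with a peak summit within 1 kb of a gene end, for all deposited peaks (left) and peaks with q of at most 0.05 (right), in the IL-4 (red) and untreated (blue) list of 1 library each; bars are shares and error bars Wilson 95% intervals over genes. At q of at most 0.05 the IL-4 bar of the ribosomal protein genes stands at 36.4%, against 19.2% for all coding genes.

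Peaks were found at genes of both subunits. Of the 47 large-subunit genes, 32 had an IL-4 gene-end peak (68.1%, 53.8 to 79.6) and 18 had one at q of at most 0.05 (38.3%, 25.8 to 52.6). Of the 30 small-subunit genes, 18 had one (95% interval 42.3% to 75.4%) and 10 had one at that q (33.3%, 19.2 to 51.2). The intervals of the subunits overlapped at both thresholds. Those of the large subunit began above the shares of all genes, 51.5% and 19.2%. Those of the small subunit, which has fewer genes, held 51.5% and began at 19.2%. No excess was thus clear for the small subunit alone, and no difference between the subunits was shown.

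The strongest peak of the family lay at Rpl21, which encodes a protein of the large subunit. On chromosome 5 it spanned 146832806 to 146833589, with 22 fragments at the summit (13.8 to 33.3), a fold enrichment of 10.1 and a −log10 q of 14.7, and ranked 43 of the 240661 IL-4 peaks. The untreated list had a peak at the same place, with summits 5 bp apart, of 9 fragments (4.12 to 17.1), a fold enrichment of 5.17 and a −log10 q of 2.70. The untreated peak was the strongest of that list at any member, and the Poisson intervals of the pair overlapped. Both summits lay inside the gene, 129 and 124 bp from its end at 146832890. RefSeq's table of starts has no entry for Rpl21.

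Rps23, whose protein sits at the decoding centre of the small subunit, had the other peak past a −log10 q of 5. It spanned 90922755 to 90923555 on chromosome 13, with 17 fragments (9.90 to 27.2), a fold enrichment of 7.90 and a −log10 q of 9.23. Its summit lay 190 bp before the gene start. The untreated list had no summit within 12961 bp of either end of Rps23. This is a listed absence, since weaker signal does not enter the list.

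Next came 3 genes at a shared −log10 q of 4.35, none with an untreated gene-end peak. Rps25, needed for translation from several viral internal ribosome entry sites, had 10 fragments (4.80 to 18.4) in a peak of 739 bp that also lies at an end of Trappc4. Rpl3, whose protein reaches towards the peptidyl transferase centre, had 9 fragments with a summit 76 bp from its end at the higher coordinate. Rpl11, whose protein joins Rpl5 and 5S rRNA to inhibit the p53 regulator MDM2, had 9 fragments at 849 bp inside the gene from its start. Rpl5 itself had 4 fragments, at its 3′ end, in a peak shared with Dipk1a at a −log10 q of 0.753.

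Genes with roles known from disease or from outside the ribosome were spread over the range of peak strengths. Rps27a, encoding a fusion of ubiquitin and a small-subunit protein, had 10 fragments with IL-4 and 7 untreated, at −log10 q values of 4.16 and 1.57, in a peak shared with Clhc1. Rps29 had 10 fragments in the IL-4 list only, at 3.97, with the 7SL RNA gene Rn7s1 within 1 kb of the summit. Rps19, the gene most often mutated in Diamond-Blackfan anaemia, had 2 IL-4 peaks at its start, of 11 and 6 fragments, the stronger at 3.86. Rpl13a, whose protein leaves the ribosome and silences inflammatory transcripts after interferon-γ, had 9 fragments at 2.58 in the IL-4 list only. Rpl38, required for translation of Hox transcripts in the embryo, had 8 fragments, 858 bp inside the gene. Rps6, the substrate of the mTOR-dependent S6 kinases, and Rpsa, also known as a laminin receptor, had no gene-end peak in either list.

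The remaining strong members of the IL-4 list were Rpl37, Rpl7, Rpl4 and Rps21. Rpl37 had 3 gene-end peaks, of 8, 5 and 4 fragments, the strongest at a −log10 q of 3.40, 68 bp before the start and near an end of Card6. Rpl7 had 9 fragments with IL-4 and 7 untreated, at 3.06 and 1.57, with summits 7 bp apart near an end of Rdh10. Rpl4, whose protein lines the exit tunnel of the nascent chain, had 7 fragments at 2.58, 583 bp before its start and near an end of Zwilch. Rps21 had 8 fragments at its start in the IL-4 list and an untreated peak of 5 fragments at its 3′ end, near an end of Cables2. The other members past q 0.05 had 6 or 7 fragments.

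The ribosomal stalk, which recruits translation factors, had weak peaks. Rplp0 had 6 fragments at a −log10 q of 1.84 and Rplp2 had 5 at 1.26, both in the IL-4 list only. The Rplp2 peak also lies near an end of Pidd1. Rplp1 had 6 fragments in the untreated list only, at 1.11. Among the 5 paralogs with the suffix l, Rpl32l had 6 fragments at 1.84, at its 3′ end, and Rps27l, a target of p53, had 4 at 0.753. The testis gene Rpl10l had 4 fragments in each list, at opposite ends, and the muscle gene Rpl3l and the testis gene Rpl39l had no gene-end peak.

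**Figure D2:**
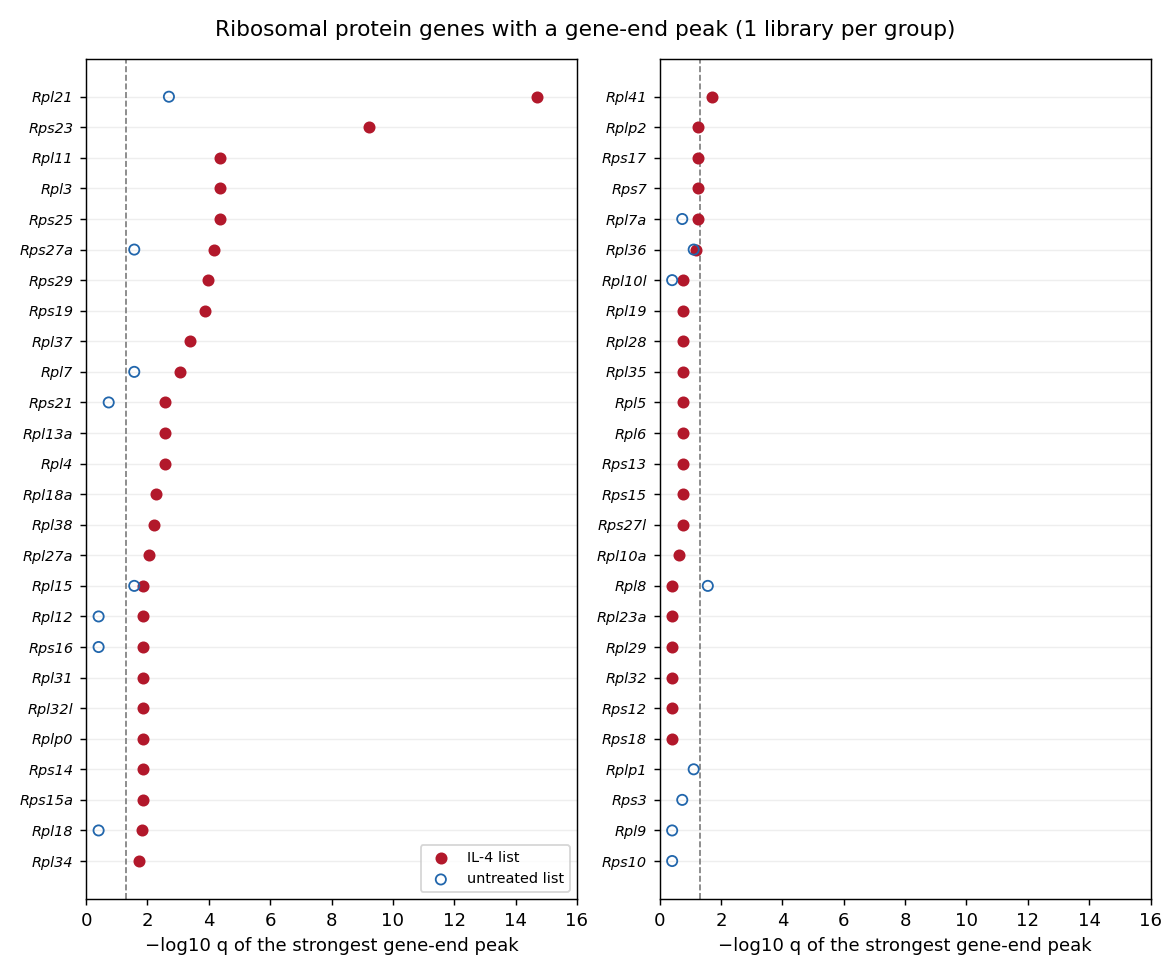
−log10 q (x axis) of the strongest gene-end peak of ribosomal protein genes that had one (y axis, sorted; not every gene is drawn), in the IL-4 list (red, filled) and the untreated list (blue, open), with 1 library per group; the dashed line marks q 0.05. Rpl21 at 14.7 and Rps23 at 9.23 stand apart from the others, which reach at most 4.35.

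Both lists had a gene-end peak at 12 members. Peaks of the lists overlapped at 7 of them (58.3%), against 41.4% of the 3011 coding genes with peaks in both lists: Rpl21, Rps27a, Rpl7, Rpl15, Rpl12, Rps16 and Rpl18. At 4 genes, Rpl36, Rpl8, Rps21 and Rpl10l, the strongest peaks lay at opposite ends, and at Rpl7a they lay at the start 257 bp apart. Fold enrichment was higher in the IL-4 list at 10 of the 12 (83.3%), against 65.6% of all such genes. The folds do not rest on like backgrounds. At these members the untreated background was always 0.936, the lowest of that list, whereas the IL-4 background ran from 0.643 to 1.29. By fragments, which are not divided by the local background, the IL-4 list was higher at 7, equal at 3 and lower at 2, against 44.1%, 16.4% and 39.5% of all such genes. The exceptions in fold were Rpl36, at 3.30 with IL-4 and 3.62 without, and Rpl8, at 2.31 and 4.13, both with the lists' peaks at opposite ends. At Rpl15, which shares its peak with Nkiras1, the values were 4.26 and 4.13, with 6 fragments with IL-4 and 7 untreated.

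Peaks at q of at most 0.05 in the untreated list lay at Rpl21, Rps27a, Rpl7, Rpl15 and Rpl8. The last 4 had 7 fragments each (2.81 to 14.4) and a −log10 q of 1.57. The 4 genes of the untreated list alone were weaker: Rplp1 with 6 fragments, Rps3 with 5, and Rpl9 and Rps10 with 4 each. None of these 4 passed q 0.05. Of the 16 members with an untreated gene-end peak, 8 shared their strongest peak with the end of another coding gene, against 17.7% of all genes with such a peak. In the IL-4 list this held for 14 of 50 members (28.0%), against 21.6%. Without such peaks, 10 members had an untreated peak (13.0%, against 20.0% of all genes) and 5 had peaks in both lists (6.49%, against 10.6%). An IL-4 peak then remained at 38 members (49.4%, 38.5 to 60.3), and the 42.0% of all genes lies inside this interval. In the IL-4 list only there were 33 (42.9%), against 31.4%.

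The 50 IL-4 members had between 3 and 22 fragments at their strongest gene-end peak, with a median of 6, and all genes with an IL-4 gene-end peak had a median of 5. At least 7 fragments were found with IL-4 at 19 members, against 12.6% of all coding genes, and without it at 5, against 4.68%. At least 10 were found at 6 members with IL-4 and at 0 without it, against 4.26% and 0.344% of all genes. The median width of the members' strongest IL-4 peaks was 246.5 bp, close to the 240.0 bp of all genes with such a peak. Of the members' peaks 13 were at least 500 bp wide, and this was not counted over all genes. Just inside the 1 kb limit, the strongest IL-4 peak of Rps15a lay 926 bp from its end. Just outside it, the nearest IL-4 summit of Rps28 lay at 1012 bp and the nearest untreated summit of Rpl39l at 1023 bp. For the members without an IL-4 gene-end peak, the nearest summit was a median of 3206 bp away and at most 29217 bp, at Rpl30.

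The position of peaks along the gene was then examined. Strand was known for the 57 members of the promoter table. Their 47 IL-4 gene-end peaks comprised 36 nearer the start and 11 nearer the 3′ end, so 76.6% (62.8 to 86.4) were at the start, against 70.3% for all 16457 genes with a strand. At q of at most 0.05, 18 of 20 were at the start (90.0%, 69.9 to 97.2), against 85.9%. Both intervals hold the share of all genes, so a preference for the start was no particular trait of the members. Counted as genes at this q, 18 of 57 members had a start peak (31.6%, 21.0 to 44.5), against 17.6% of all genes with a strand. Only 2 of 57 had a 3′ peak (3.51%, 0.968 to 11.9), against 2.97%: Rpl32l and Rps15a.

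**Figure D3:**
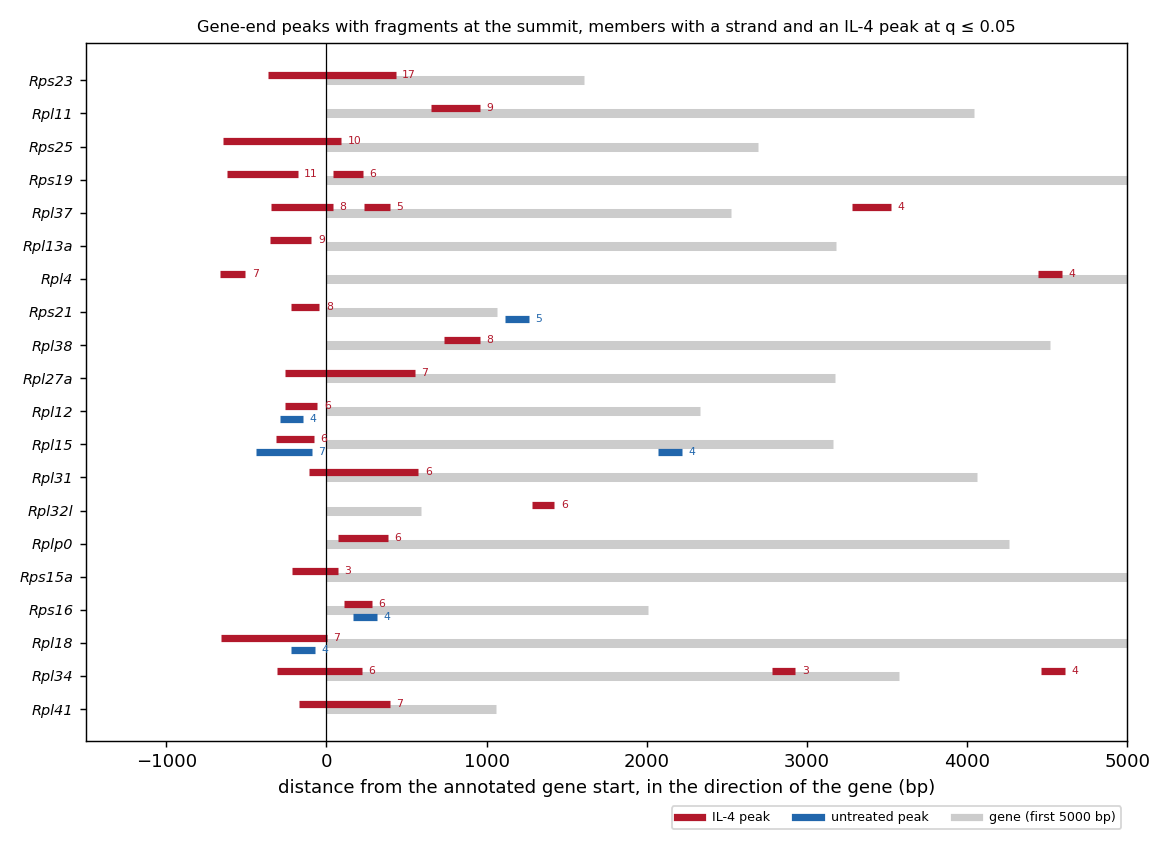
Gene-end peaks of the 20 members with a strand and an IL-4 peak at q of at most 0.05, drawn by distance from the annotated gene start (x axis, bp; genes on y, strongest at the top); red and blue bars are IL-4 and untreated peaks with the fragments at the summit, and grey bars are genes. Of the 20 strongest peaks, 18 lie nearer the start than the 3′ end; the 3′ peak of Rps15a, with 6 fragments, lies beyond the right edge.

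The IL-4 summits at gene starts lay more often before the start than inside the gene. Of the 36 start peaks of members, 23 had the summit upstream and 13 downstream (36.1% downstream), whereas 55.0% were downstream over all genes. The median position of these summits was -105.5 bp from the start in members, negative being upstream, and 51.0 bp over all genes. In the 500 bp before the start the IL-4 list had 36.8 summits per 100 members, against 16.5 per 100 genes overall. In the 500 bp after it the values were nearly equal, 19.3 and 19.1. The untreated list had 6 summits in the 500 bp before the start, or 10.5 per 100 members, against 4.77 per 100 genes, and 1 in the 500 bp after it.

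**Figure D4:**
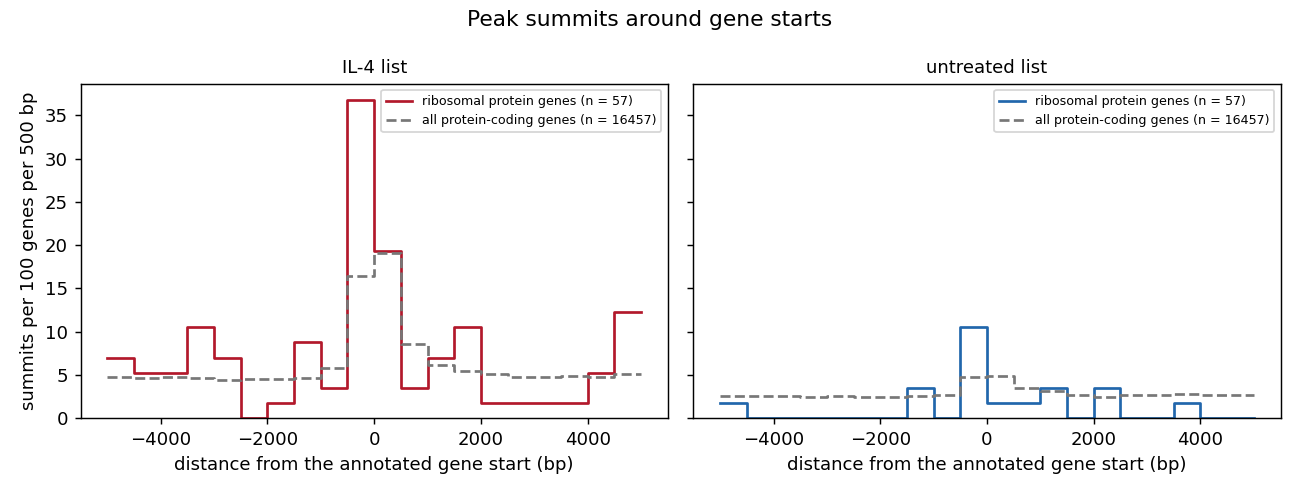
Peak summits per 100 genes in bins of 500 bp (y axis) by distance from the annotated gene start (x axis, bp; negative is upstream) for the 57 ribosomal protein genes with a strand (solid) and all 16457 such genes (dashed), in the IL-4 (left) and untreated (right) list. The members' IL-4 summits peak in the bin just upstream, at 36.8 against 16.5 for all genes; single bins of members rest on few summits.

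Whole peaks were also laid over the promoter windows, from 250 bases before to 50 bases from the start. An IL-4 peak at q of at most 0.05 overlapped the window of 14 of 57 members (24.6%, 15.2 to 37.1), against 14.4% of all windows. An untreated peak of any strength overlapped 4 of the 57 (7.02%, 2.76 to 16.7), against 6.37%, so this measure showed no untreated excess.

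The promoters of the family shared letters that are less common in other promoters. CCGGAAG was found on either strand in 23 of 57 members (40.4%, 28.6 to 53.3) and in 12.3% of all 16457 promoter windows. A run of 7 or more C or T within 10 bases of the start was found in 25 of 57 (43.9%, 31.8 to 56.7) and in 12.2% of all. This run length was chosen after the values were seen. The letters planned for this run, CTTTTCC, CTCTTTCC or TCTTTCC at the same place, were found in 4 of 57 (7.02%, 2.76 to 16.7). They were found in 0.280% of all windows. The YY1 letters AAGATGGC were found in 5 members (8.77%, 3.81 to 18.9) and 3.21% of all windows, the GC box GGGCGG in 32 (56.1%, 43.3 to 68.2) and 47.3%, and the CCAAT box in 17 (29.8%, 19.5 to 42.7) and 39.1%. TATAAA was found in 5 members (8.77%) and 13.5% of all windows, and the E box CACGTG in 5 (8.77%) and 7.97%. TTCNNNGAA, the letters bound by STAT factors, were found in 3 members (5.26%, 1.81 to 14.4) and 7.88% of all windows. A longer form, with arms of 4 letters and 4 free bases between them, was found in 1 member (1.75%) and 0.839% of all. Arms of 3 letters with 4 bases between them were not counted, so the STAT6 form was not assessed. A match describes these windows and is not a bound site.

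The letters were also counted in members with and without a strong IL-4 peak. Of the 20 members with an IL-4 gene-end peak at q of at most 0.05, 9 had CCGGAAG, and of the other 37 members 14 did. The run of 7 or more pyrimidines was found in 10 of 20 and 15 of 37, and the planned pyrimidine letters in 3 of 20 and 1 of 37. GGGCGG was found in 16 of 20 and in 16 of 37. These counts are descriptions of few genes and were not tested.

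Over all genes, promoters with many CpG dinucleotides had IL-4 peaks more often. The median promoter of a member held 21 CpG, against 14 over all genes. Among all genes with at least 21 CpG, 32.5% had an IL-4 gene-end peak at q of at most 0.05, against 13.3% of those with fewer. Among members, 10 of 33 with at least 21 CpG had one (30.3%) and 10 of 24 with fewer (41.7%). At 21 CpG or more the share of members was thus near that of all genes. Below 21 CpG it was higher than that of all genes, 41.7% against 13.3%. This division of the promoters was chosen after the values were seen, and the part of CpG content in the excess of members was not tested further.

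Genes that work with the ribosomal proteins also had IL-4 gene-end peaks. The shares are read against the 51.5% of all genes with all deposited peaks and against 19.2% at q of at most 0.05. Of 36 translation factor genes, 28 had one (77.8%, 61.9 to 88.3) and 18 had one at q of at most 0.05 (95% interval 34.5% to 65.5%). The strongest were Pabpc1, encoding the poly(A)-binding protein, with 20 fragments at a −log10 q of 11.7, Eif5a with 13 at 6.88 and the helicase gene Eif4a1 with 15 at 6.86. Of 39 ribosome assembly genes, 28 had one (71.8%, 56.2 to 83.5) and 17 had one at that q (43.6%, 29.3 to 59.0), led by Ncl, encoding nucleolin, with 15 fragments at 9.19. Of 10 genes that control ribosomal protein synthesis, 4 passed (95% interval 16.8% to 68.7%, which holds the share of all genes), led by Eif4ebp2, encoding a translational repressor inactivated by mTOR, with 10 fragments at 4.86. The 78 mitochondrial ribosomal protein genes, whose products form a separate ribosome, had 47 genes with an IL-4 gene-end peak (60.3%, 49.2 to 70.4) and 17 at q of at most 0.05 (21.8%, 14.1 to 32.2). The last share was below the 36.4% of the cytosolic family, with overlapping intervals, and close to that of all genes. Translation factor and ribosome assembly genes instead lay above the cytosolic family at both thresholds. The family stood at 64.9% with all deposited peaks and at 36.4% at q of at most 0.05. Their intervals overlapped those of the family as well. The IL-4 excess over all genes thus did not set the cytosolic family apart from translation factor and ribosome assembly genes.

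Cytosolic ribosomal proteins that the symbol rule leaves out had peaks of the same range. Fau, which encodes a fusion of a ubiquitin-like protein with a ribosomal protein, had 7 fragments in the IL-4 list only, at a −log10 q of 2.38. Rack1, a scaffold on the small subunit, had 4 fragments in the IL-4 list only. Rps3a1 had 4 with IL-4 and 6 untreated.

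In the 50 kb around the genes, peaks were more numerous in the IL-4 list at nearly every member. Members had 4 to 27 IL-4 peaks, with a median of 13, and 0 to 15 untreated peaks, with a median of 6. More IL-4 than untreated peaks were found at 74 of 77 members (96.1%), against 87.3% of all genes. The median of log2((IL-4 peaks + 1)/(untreated peaks + 1)) was 1.14 for members, with quartiles at 0.58 and 1.49, and 0.81 for all genes, with quartiles at 0.36 and 1.25. With the IL-4 list shortened to the length of the untreated list, these medians were 0.49 and 0.17. Of the members, 51 (66.2%) lay above the median of all genes. Translation factor genes had a median of 1.11, mitochondrial ribosomal protein genes 1.00 and ribosome assembly genes 0.93.

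Among the highest ratios were those of Rpl4 and Rpl27, each with 14 IL-4 peaks and 1 untreated peak. Rpl28 had the most IL-4 peaks, 27, beside 7 untreated ones. The only members with fewer IL-4 than untreated peaks were Rpl39l with 7 and 12, Rpl32l with 10 and 15, and Rpl8 with 10 and 11. Rpl39l and Rpl32l are both among the 5 paralogs with the suffix l. Some members lie close enough for their windows to overlap, as do Rps2 with Rpl3l and Rpl41 with Rps26, and such pairs share peaks.

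**Figure D5:**
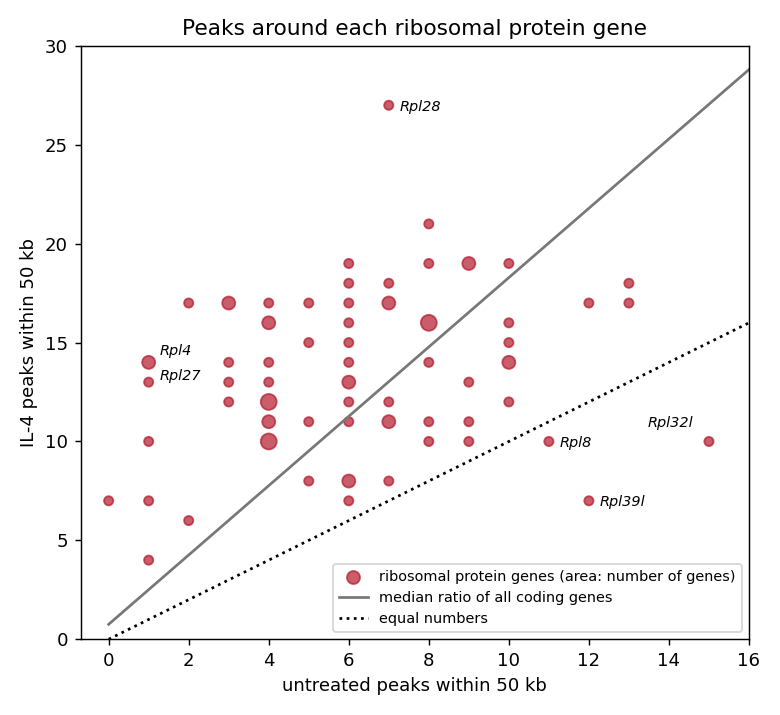
IL-4 peaks (y axis) against untreated peaks (x axis) within 50 kb of each of the 77 ribosomal protein genes, with marker area proportional to the number of genes at a point; the grey line is the median ratio of all coding genes (log2 0.81) and the dotted line marks equal numbers. Of the 77 genes, 74 lie above the dotted line, and Rpl39l, Rpl32l and Rpl8 lie below it.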

How the data were processed

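The 2 deposited files are narrowPeak lists, 1 per library, on mm10. Tools named in the submitters' processing notes, with no role given, are MACS2 2.2.7.1, DiffBind and Bowtie 0.12.8. The treatment of duplicates and of reads that match several positions is not given in the sources used here. Per the values deposited, the score is 10 times the −log10 p with decimals dropped, the fold enrichment is a linear ratio at the summit over the background, and the columns of −log10 p and of −log10 q came from the authors' caller. At the strongest untreated peak of every member that had one, this background was the same value, 0.936. No listed peak had a −log10 p below 2.00.

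Fragments at a summit were solved from fold and −log10 p, taking the fold as (fragments + 1)/(background + 1) and a Poisson upper tail, within 0.01, for 100% of peaks. The solver and the gene-end search were tested on simulated data. The values for the solver were simulated with the same formulas, so this cannot show that the caller used them. Of entries with the same interval, 203 untreated and 654 IL-4 ones were dropped in favour of the strongest summit. Gene ends came from the RefSeq table of GRCm38.p6, and strand and starts from its promoter table. Suffix letters of either case were accepted in symbols. No test between groups was made. Python 3.11.15 with scipy 1.17.1 was used.

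Members, lists and thresholds were chosen with earlier results of these data known. Named were the 12 members with the highest IL-4 −log10 q (13 with a tie), members past q 0.05 or alone in the untreated list, members in both lists, the extreme ratios within 50 kb and up to 3 genes per other list. Others named for their function or position were chosen after their values were seen. Values of a few single genes are not reported here.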

Additional observations from a re-analysis of the deposited data

How the results depend on the processing

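A total of 46 values were recomputed under other settings, and 30 of them stayed within 1.5 times the reported count or ratio, or within the interval of the reported share. At q of at most 0.05 the members with a gene-end peak numbered 28 in the IL-4 list, 5 in the untreated list, 4 in both and 24 in the IL-4 list only, and the share of IL-4 peaks at the start was 90.0%. At a −log10 q of at least 5 these numbers were 2, 0, 0 and 2. Within 3 kb of a gene end 26 members had an untreated peak and 22 had one in both lists (28.6%, against 40.7% of all genes). The IL-4 shares were nearly equal there (77.9% against 76.6%), with less sequence searched at the shorter members. Within 500 bp the share at the start was 88.9%. Without peaks near an end of another protein-coding gene, 10 members had an untreated peak and 5 had one in both lists. These were 13.0% and 6.49%, against 20.0% and 10.6% of all genes. The IL-4 share was then 49.4% of members and 42.0% of all genes. The median log2 ratio within 50 kb was 0.65 for peaks of at least 4 fragments and 0.49 with lists of equal length, where all genes had 0.32 and 0.17. Adding 8 genes outside the symbol rule gave 56 genes with an IL-4 peak. No paired analysis was possible because each group had 1 library, and no library could be left out. Depth sets a floor: the weakest listed peaks had 4 fragments without IL-4 and 3 with it.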

Other observations

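Many ribosomal protein genes carry genes of small nucleolar RNAs, guides of ribosomal RNA modification, in their introns. A total of 56 annotated snoRNA genes lay inside 27 of the 77 members. Of these 27 members, 18 had an IL-4 gene-end peak and 9 had one at q of at most 0.05 (33.3%). Of the 50 members without a snoRNA gene, 32 had one and 19 had one at that q (38.0%).

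Processed copies of ribosomal protein genes are common in the genome, and reads from exons can match several of them. The RefSeq table named 281 such pseudogenes on chromosomes 1 to 19. At q of at most 0.05, 10 of them had an IL-4 gene-end peak (3.56%), against 3.05% of all 9319 pseudogenes, and 4 had an untreated one (1.42%), against 2.53%. The members themselves stood at 36.4% and 6.49%.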
